A study of Homo sapiens with 6 samples.

Results

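The genes described here were the FGF19-FGFR4 signalling axis, in RNA-seq of hepatocellular carcinoma cells with and without TKT overexpression. They comprised the ligands FGF19, FGF2, FGF17 and FGF21, the receptors FGFR1 to FGFR4, the co-receptor KLB and the bile acid synthesis gene CYP7A1. These 10 genes were taken by symbol from the 22077 genes of the deposited count table, and all 10 had a row. The set was chosen with the fold changes of this same contrast already known, so the differences of the 10 genes between conditions, and the counts of them that passed a threshold, are given as a description, with no p-value printed for a member.

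The study overexpressed TKT, a transketolase of the non-oxidative pentose phosphate pathway, and compared the cells with cells carrying the vector. Each condition had 3 cultures. The labels give the genotype of the first as over-expression and of the second as wt, and spell the cell line Hu7. The Results of the study name Huh7, a human hepatoma line, whereas its Methods name HCCLM3 for the sequencing, so the libraries were treated as Huh7. Per the study's methods, TKT came from an expression plasmid whose name includes GFP and PURO, and transfected cells were put under selection, while the vector of the control cells is not described further there. The counts did not separate introduced from endogenous TKT transcripts, and the labels give no clone, passage or harvest time. No culture was treated with a drug or with bile acids according to the labels.

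FGF19 is an endocrine fibroblast growth factor. In the body it is made mainly by the ileum, where bile acids induce it through the nuclear receptor FXR, and it travels to the liver. There it binds FGFR4 together with the co-receptor beta-klotho, encoded by KLB, and the resulting signal lowers transcription of CYP7A1, the rate-limiting enzyme of bile acid synthesis. Some hepatocellular carcinomas express FGF19 themselves. FGF21 is the related endocrine ligand of liver, FGF2 and FGF17 act locally and bind heparan sulfate, and the FGF receptors are tyrosine kinases that feed the RAS-ERK cascade.

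The bases just upstream of the annotated starts of FGFR4, FGFR3 and KLB are shown because these were the 3 most abundant receptor and co-receptor genes of the set per length, with FGFR4 having 2 annotated starts. They were read from RefSeq promoter entries (GRCh38.p14), cut where an exon of the gene begins in GENCODE 29, and are printed 5′ to 3′ on the strand of the gene. Capitals mark a match to an E-box, CACGTG. FGFR4 at its first start lies behind 221 bases at chr5:177086665-177086885 on the plus strand with a GC content of 79.2%, and its second start lies inside the gene behind 250 bases at chr5:177089300-177089549 with 57.2%. The FGFR3 window covers 250 bases at chr4:1793043-1793292 on the plus strand with 86.8% GC, and the KLB window 173 bases at chr4:39406680-39406852 on the plus strand with 39.3%.
FGFR4 first start: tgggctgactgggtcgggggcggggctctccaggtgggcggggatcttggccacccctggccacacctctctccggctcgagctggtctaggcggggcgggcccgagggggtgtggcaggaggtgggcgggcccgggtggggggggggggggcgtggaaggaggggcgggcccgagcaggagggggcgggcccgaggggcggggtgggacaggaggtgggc
FGFR4 second start: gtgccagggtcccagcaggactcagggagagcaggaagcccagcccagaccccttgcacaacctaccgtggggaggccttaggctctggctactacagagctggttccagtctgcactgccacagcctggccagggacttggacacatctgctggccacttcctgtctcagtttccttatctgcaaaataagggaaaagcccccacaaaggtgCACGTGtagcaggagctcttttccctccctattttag
FGFR3: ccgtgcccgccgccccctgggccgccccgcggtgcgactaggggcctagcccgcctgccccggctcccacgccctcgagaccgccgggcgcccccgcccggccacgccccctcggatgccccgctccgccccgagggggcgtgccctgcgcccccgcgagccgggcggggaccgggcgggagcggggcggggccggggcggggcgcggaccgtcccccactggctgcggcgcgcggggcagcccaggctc
KLB: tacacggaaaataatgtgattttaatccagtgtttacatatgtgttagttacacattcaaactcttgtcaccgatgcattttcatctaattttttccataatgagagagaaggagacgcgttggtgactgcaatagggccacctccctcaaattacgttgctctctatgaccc

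These windows were searched on both strands for the E-box CACGTG, the AP-1 motif TGANTCA and the nuclear receptor hexamer AGGTCA. The windows of FGFR3, KLB and the first FGFR4 start held 0 matches, and the window of the second FGFR4 start held 1 E-box. Of the 5 FGFR2 starts, which are not printed, the fourth had 1 AGGTCA in its window and the others held 0 matches, as did the windows of FGF2 and FGF21. In the full 250 bases of each start, before the cut, the numbers of matches were the same. In the 250 bases upstream of 35116 RefSeq promoters, also uncut, the E-box was present in 6.34%, the AP-1 motif in 6.57% and the hexamer in 12.1%. A match is a description of the letters, and its absence says only that they are not in these windows. No upstream window of FGF19, FGF17, FGFR1 or CYP7A1 was read here, so these genes were not searched.

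The 6 libraries held between 30148788 and 37096156 counts. TKT reached 9402, 9549 and 9392 CPM (count values divided by the TMM-adjusted library size) on overexpression against 497, 469 and 515 in the control cultures, a 19.1-fold difference (edgeR quasi-likelihood test, adjusted p = 1.15e-25). Of 13 hepatocyte and hepatoma markers, 12 exceeded 10 counts in a library, with AFP at 2565 to 2750 FPKM (fragments scaled by gene length and library size) and ALB at 2252 to 2378, whereas APOB stayed at 0 to 0.0124 FPKM. Their summed level was 24725 to 25324 CPM on overexpression and 24027 to 24910 in control cells. Of the markers of other cells, the 4 fibroblast genes measured summed to 1.81 to 3.08 against 1.74 to 2.51 CPM, with COL1A2 at 0 to 0.00591 FPKM, and the 2 endothelial genes to 15.4 to 19.4 against 17.1 to 20.5 CPM, with VWF at 0 to 0.00615 FPKM. The 3 leukocyte genes, nearly all LYZ, summed to 116 to 122 against 144 to 157 CPM, with CD3E at 0 to 0.0237 FPKM. The 3 intestinal genes, mostly CDX2 at 14.2 to 18.7 FPKM, summed to 61.1 to 63.6 against 76.2 to 79.8 CPM. These last 2 sums did not overlap between conditions, and their part in the results on FGF19 was not tested. In such bulk libraries fewer cells of a type and less RNA per cell cannot be told apart.

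The ligand gene FGF19 spans positions 69698232 to 69704642 of chromosome 11 (GRCh38, minus strand) in 3 exon blocks of GENCODE 29. With TKT its counts were 5306, 4675 and 4518, and without 2566, 2662 and 2651. Scaled to CPM, these were 143, 152 and 137 against 81.7, 87.6 and 79.0, so the lowest TKT culture stood well above the highest control culture. The means were 144 ± 7.11 and 82.8 ± 4.42 CPM (SD, n = 3). The log2 fold change from the edgeR fit was 0.80 (SE 0.05, 95% interval 0.69 to 0.91), a 1.74-fold difference, and it lay between 0.76 and 0.84 when each culture was left out in turn. FGF19 stayed below the fold threshold of the study, an absolute log2 fold change over 1.

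FGF2, the basic fibroblast growth factor, acts on neighbouring cells through FGFR1 and other receptors without a klotho. It was far less abundant, with 491, 343 and 440 counts on TKT overexpression against 297, 281 and 301, or 13.2, 11.1 and 13.4 against 9.45, 9.25 and 8.97 CPM. All 3 TKT cultures exceeded all 3 control cultures, but the second TKT culture sat closer to the controls than to the other TKT cultures. The log2 fold change was 0.45 (SE 0.11, 95% interval 0.21 to 0.69), a 1.36-fold difference. It lay between 0.40 and 0.53 with single cultures left out. FGF2 shares 804 exon bases on the opposite strand with NUDT6, which is 11.9% of the FGF2 exons, and the sources used here do not say whether counting used strand, so reads of the pair cannot be told apart there. NUDT6, a nudix hydrolase gene, had 201, 167 and 160 counts against 149, 131 and 103, with a log2 fold change of 0.37 (SE 0.18, edgeR adjusted p = 0.214).

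FGF17, a ligand of the FGF8 subfamily known from the developing brain, was near the limit of detection. It had 28, 15 and 11 counts on TKT overexpression and 0, 8 and 5 in control cells, which sum to 54 and 13. It passed the expression filter only through the TKT cultures, so a difference was built into its selection, and the log2 fold change of 1.92 had an SE of 0.73 and a 95% interval of 0.41 to 3.44. Leaving out single cultures moved it between 1.35 and 2.73. The lowest TKT culture had 0.334 CPM, from 11 counts, and the highest control culture 0.263, from 8 counts.

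FGF21, the hepatic ligand that shares KLB with FGF19, did not pass the expression filter. Its counts were 6, 0 and 14 on TKT overexpression and 2, 8 and 1 in control cells, so the groups overlapped and a difference was not detectable at this depth. Per length, FGF21 was at 0.146 ± 0.161 FPKM with TKT, where FGF19 was at 78.9 ± 2.92 FPKM (SD, n = 3).

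**Figure D1:**
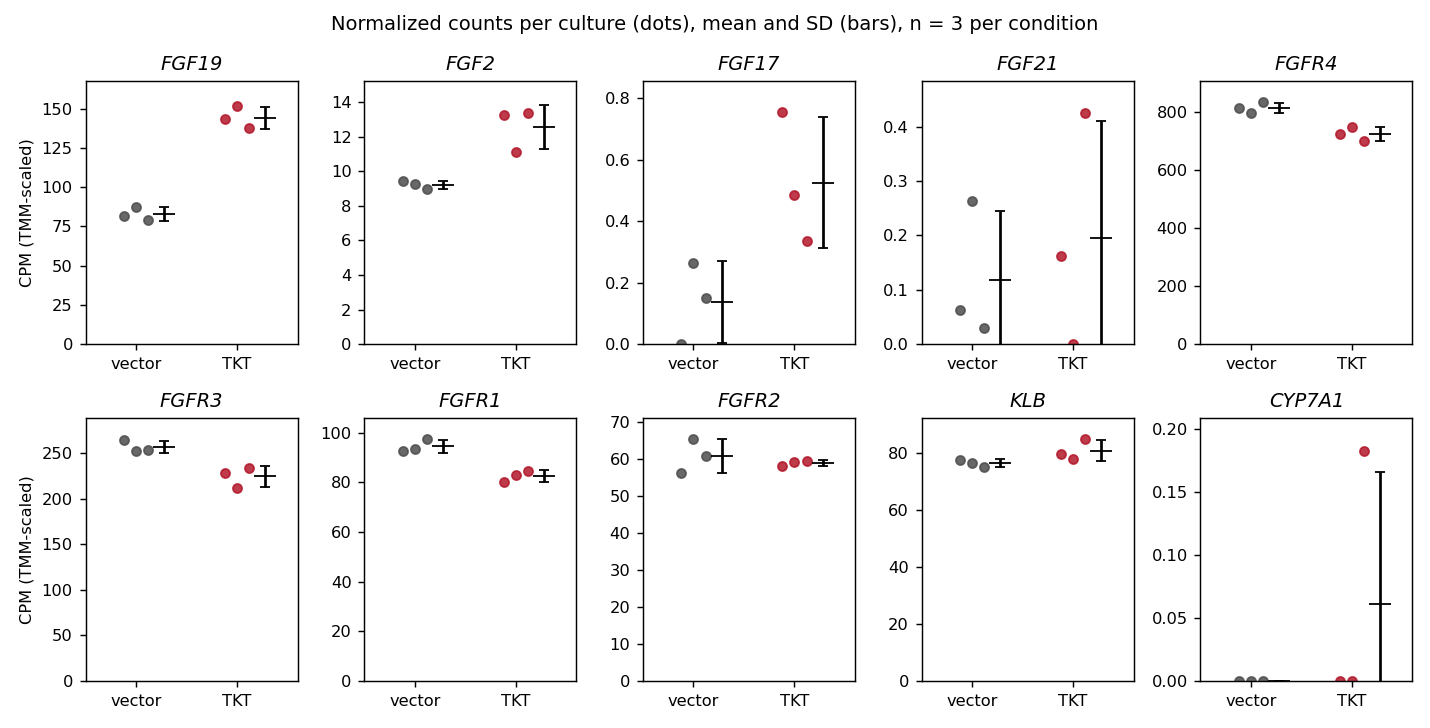
Each panel plots CPM (linear axis from 0) of 1 gene, with a dot per culture in the vector control (grey) and TKT overexpression (red), and the mean with its SD beside the dots. The FGF19 dots lie between 79.0 and 87.6 in control cells and between 137 and 152 with TKT, the FGFR4, FGFR3 and FGFR1 dots lie lower with TKT, and those of FGFR2, FGF21 and CYP7A1 overlap. SD bars that would reach below 0 end at the axis.

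Among the receptors, FGFR4 is the one that pairs with beta-klotho in hepatocytes. It lies on chromosome 5 from 177086886 to 177098144 on the plus strand, in 19 exon blocks. Its counts were 26804, 23047 and 23012 on TKT overexpression and 25551, 24198 and 27894 in control cells, which overlap before scaling. As CPM they were 723, 747 and 699.7 against 813, 797 and 831 and did not overlap, with means of 723 ± 23.7 and 814 ± 17.4 CPM (SD, n = 3). The log2 fold change was -0.17 (SE 0.04, 95% interval -0.24 to -0.10), or 0.889 times the control level, and lay between -0.19 and -0.15 with single cultures left out.

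FGFR3, a receptor best known from cartilage growth and expressed in some hepatomas, had 229, 212 and 234 CPM on TKT overexpression against 265, 252 and 253 in control cells. Each control culture was above each TKT culture. The log2 fold change was -0.19 (SE 0.04, 95% interval -0.28 to -0.11), 0.876 times the control level.

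FGFR1, the widely expressed receptor of FGF2, had 80.1, 82.9 and 84.6 CPM against 92.9, 93.3 and 97.4. The groups were again apart, with a log2 fold change of -0.20 (SE 0.05, 95% interval -0.30 to -0.09), 0.873 times the control level. FGFR1 exons share 138 bases with LETM2 and 156 with an antisense gene, AC087623.1, both on the opposite strand.

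FGFR2, whose splice forms separate epithelial from mesenchymal ligand responses, was the receptor whose groups overlapped. It had 58.0, 59.2 and 59.6 CPM with TKT against 56.3, 65.4 and 60.9. The log2 fold change was -0.05 (SE 0.06, 95% interval -0.17 to 0.07), and it was 0.01 without vector control replicate 2, which had the highest FGFR2 CPM.

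KLB, which gives FGF19 and FGF21 their affinity for the receptor complex, lies on chromosome 4 from 39406853 to 39451536 on the plus strand. It had 2944, 2396 and 2791 counts on TKT overexpression and 2437, 2321 and 2511 in control cells, or 79.4, 77.7 and 84.9 against 77.6, 76.4 and 74.8 CPM. The lowest TKT culture and the highest control culture were nearly level in CPM, and in FPKM the groups overlapped. The log2 fold change was 0.08 (SE 0.05, 95% interval -0.03 to 0.19), so the interval leaves room for differences from 0.981 to 1.14 times the control level.

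CYP7A1, the classic target that FGF19 signalling lowers, was hardly detected. It had 0, 0 and 6 counts with TKT and 0 in each control culture, where a count of 0 allows up to 3 counts in a library. The direction of CYP7A1 could therefore not be read in these cells, and CYP8B1, the 12-alpha-hydroxylase of the same pathway, was as sparse with 0, 2 and 0 counts against 0 in each control culture.

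At the thresholds of the study, an adjusted p under 0.05 and an absolute log2 fold change over 1, edgeR's quasi-likelihood test called 0 of the 8 tested members, against 0.727% of all 14162 tested genes (0.699% higher and 0.0282% lower). The study used DESeq2 and reported several times more genes at these thresholds than edgeR or DESeq2 gave here. The cause of that gap was not tested. At an adjusted p under 0.05 alone, 5 members passed, against 10.6% of all tested genes. Here FGF19 and FGF2 were the 2 higher ones (background 5.69%), and FGFR1, FGFR3 and FGFR4 the 3 lower ones (background 4.94%). Without TKT replicate 1 neither FGF2 (log2 fold change 0.41) nor FGFR1 (-0.17) was among them, without TKT replicate 3 FGF2 (0.40) was not, and without vector control replicate 3 FGFR1 (-0.17) was not. In CPM, the conditions did not overlap in 28% of all tested genes. Among the members, 4 lay higher in every TKT culture, namely FGF19, FGF2, FGF17 and KLB (background 14.1%), and 3 lay lower, namely FGFR1, FGFR3 and FGFR4 (background 13.9%). Nothing is read from these counts, since the same contrast was known when the genes were chosen. FGF17 also passed the expression filter only through the TKT cultures, and KLB overlapped between conditions in FPKM. The median log2 fold change was 0.02 over the 8 tested members and 0.0008 over all tested genes. FGF21 and CYP7A1 were not tested.

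**Figure D2:**
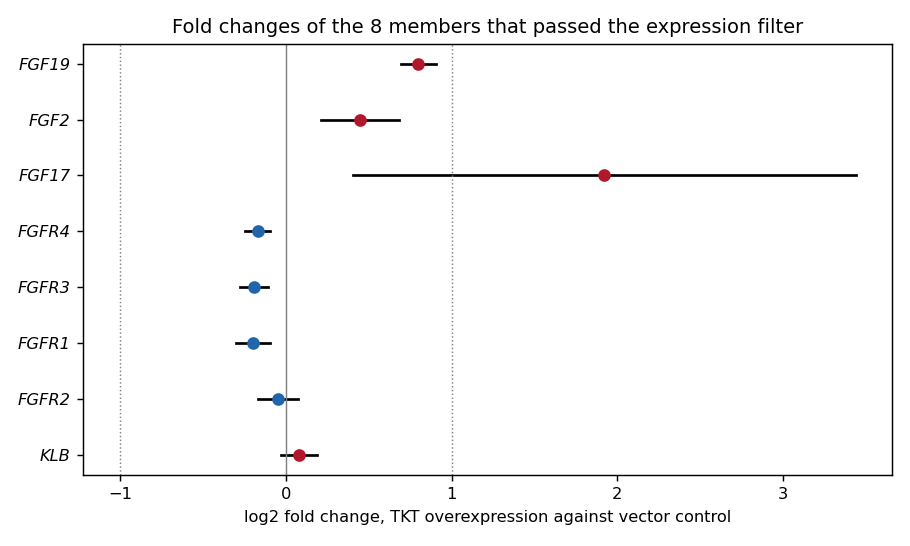
Points give the edgeR log2 fold change (TKT overexpression against vector control, n = 3 cultures each) of the 8 tested genes and lines the 95% interval, with red for higher and blue for lower estimates and dotted lines at the fold threshold of 1 in either direction. FGF19 at 0.80 has a narrow interval, FGF17 at 1.92 spans 0.41 to 3.44, and the 4 receptors sit between -0.20 and -0.05.

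On a scale per length, the deposited FPKM, FGFR4 led the axis in both conditions. In control cells the order of levels was FGFR4 at 168 ± 2.40, FGFR3 at 52.7 ± 1.29, FGF19 at 45.2 ± 2.80, KLB at 12.6 ± 0.266, FGFR1 at 5.46 ± 0.126, FGFR2 at 3.22 ± 0.265 and FGF2 at 1.35 ± 0.0389 FPKM (SD, n = 3). FGF21, FGF17 and CYP7A1 followed at 0.0881, 0.0418 and 0 FPKM. With TKT overexpression FGF19 moved above FGFR3, at 78.9 ± 2.92 against 46.3 ± 2.94 FPKM, while FGFR4 stayed first at 150 ± 3.01. KLB at 13.4 ± 0.797, FGFR1 at 4.79 ± 0.173, FGFR2 at 3.12 ± 0.0686 and FGF2 at 1.85 ± 0.205 FPKM kept their places. In both conditions the ranges of neighbouring genes overlapped only between FGF17 and FGF21 and between the lower of these and CYP7A1. The place of FGFR1 above FGFR2 rests on the gene lengths behind the deposited FPKM, which were 18879 bases for FGFR2 and 17261 for FGFR1. Per kilobase of GENCODE 29 exons, 7578 and 13842 bases, FGFR2 was above FGFR1 at 8.03 against 6.83 CPM per kilobase in control cells and 7.78 against 5.96 with TKT. The move of FGF19 past FGFR3 held on this second scale, from 33.8 against 53.0 to 58.9 against 46.4 CPM per kilobase.

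The summed level of the 4 receptors was 204 ± 0.177 FPKM with TKT and 229.6 ± 1.90 in control cells. Its composition differed between conditions by less than the SD over cultures for FGFR4, FGFR3 and FGFR1, and the ranges of FGFR2 overlapped. FGFR4 made up 73.5% ± 1.49 with TKT and 73.3% ± 0.546 without, FGFR3 22.7% and 22.9%, FGFR1 2.35% and 2.38%, and FGFR2 1.53% and 1.40%, on the lengths behind the deposited FPKM. The ratio of FGF19 to FGFR4 in FPKM was 0.526 ± 0.00896 with TKT, from 0.519 to 0.536 over cultures, and 0.269 ± 0.0200 in control cells, from 0.251 to 0.291 (SD, n = 3). The ratio of KLB to FGFR4 was 0.0895 ± 0.00706 and 0.0751 ± 0.00261. Among all genes of a library FGF19 ranked 485 to 511 by FPKM with TKT and 892 to 1040 in control cells, whereas FGFR4 ranked 230 to 238 and 201 to 206.

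Of the other FGF ligands, 9 of 18 listed were analysed and 2 passed the expression filter. FGF12, an intracellular FGF homologue that regulates sodium channels, had a log2 fold change of 0.34 (SE 0.22, edgeR adjusted p = 0.376), and FGF8 one of 0.66 (SE 0.67, adjusted p = 0.611). FGF22, singled out after its values were seen, had 8, 9 and 11 counts with TKT against 2, 0 and 0 and was too sparse for the test. Of the remaining receptor-like genes and binding proteins, FGFRL1, a receptor without a kinase domain, had 85.2 ± 3.26 against 94.2 ± 4.38 CPM and a log2 fold change of -0.15 (SE 0.05, adjusted p = 0.0784, and 0.0343 without vector control replicate 2). KL, the alpha-klotho co-receptor of FGF23, had 26, 4 and 8 against 2, 8 and 6 counts and was not tested.

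Of the 18 tested genes of heparan sulfate and its proteoglycans, on which FGF ligands bind, 2 rose and 1 fell at an adjusted p under 0.05, or 16.7% beside 10.6% of all tested genes, with a list median of -0.05 beside 0.0008 over all tested genes. Since the lists were chosen with earlier results of these data known, the shares past the threshold given for the lists are descriptions. The syndecan SDC4 rose from 214 ± 7.10 to 249.96 ± 0.874 CPM (log2 fold change 0.22, SE 0.04, edgeR adjusted p = 4.09e-04). The sulfotransferase HS6ST2 rose by 0.20 on the log2 scale (adjusted p = 0.0478) and the epimerase GLCE fell by 0.22 (adjusted p = 0.0441). Both of these calls were lost whichever single culture was left out, with adjusted p between 0.0509 and 0.186 for HS6ST2 and between 0.0545 and 0.156 for GLCE. Of the 25 adaptors and transducers downstream of the receptors, such as FRS2, GRB2 and the RAF and ERK kinases, 1 rose and 0 fell, a share of 4% that is below the 10.6% of all tested genes, with a median of 0.01. This was STAT3, at a log2 fold change of 0.16 (SE 0.05, adjusted p = 0.0447), which missed the threshold in 4 of the 6 fits without a culture, with adjusted p of 0.171 and 0.113 without TKT replicates 1 and 2 and 0.0981 and 0.156 without vector control replicates 1 and 3.

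The feedback and output genes of FGF-ERK signalling changed in both directions. Of 18 tested, 5 rose and 3 fell, a share of 44.4% beside 10.6% of all tested genes, with a median of -0.06. FLRT3, a transmembrane protein that binds FGF receptors, went from 52.3, 55.6 and 49.7 CPM in control cells to 81.5, 77.8 and 79.4 with TKT (log2 fold change 0.60, SE 0.05, edgeR adjusted p = 1.07e-07). The nuclear ERK phosphatases DUSP5 and DUSP4 each rose by 0.37 on the log2 scale (adjusted p = 1.30e-04 and 3.85e-04), and MYC rose by 0.21 (adjusted p = 0.00530). From qRT-PCR the study reported that TKT leaves c-Myc mRNA unchanged, and the reason for this difference was not tested. CCND1, the cyclin D1 gene, was the fifth to rise, by 0.18. The genes that fell were the receptor kinase antagonist SPRY2, the cytoplasmic ERK phosphatase DUSP6 and the transcription factor ETV4. The paralogs SPRY1, SPRY4, ETV1 and ETV5 did not pass the threshold, with log2 fold changes of -0.18 for SPRY1 (adjusted p = 0.0576), -0.18 for SPRY4 (0.0752), -0.19 for ETV1 (0.0809) and -0.08 for ETV5 (0.401). ETV4 fell by 0.20 on the log2 scale (SE 0.04, adjusted p = 0.00605), from 269 ± 13.2 to 235 ± 12.4 CPM. SPRY2 fell by 0.22, from 51.2, 55.7 and 54.8 CPM to 44.5, 47.7 and 47.1 (adjusted p = 0.0163), a call lost without TKT replicate 1 (0.119) and without vector control replicate 3 (0.0506). DUSP6 fell by 0.20 (adjusted p = 0.0283), a call lost without TKT replicates 1 (0.180) and 2 (0.0837) and without vector control replicates 1 (0.158) and 3 (0.0506). In the GO term for FGF receptor signalling of the deposited table, which holds 47 genes, 27 tested genes other than the members included 2 that rose, CCN2 and FLRT3, and 1 that fell, SPRY2. This share of 11.1% was near the 10.6% of all tested genes.

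**Figure D3:**
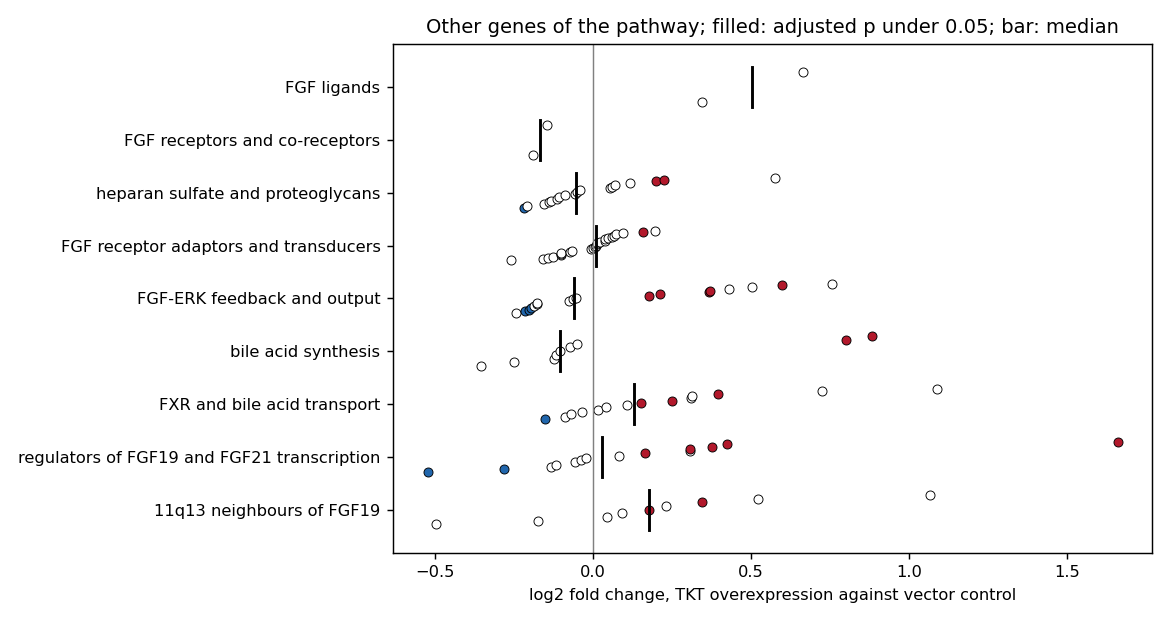
Each dot is a tested gene other than the 10 members, placed at its edgeR log2 fold change and grouped by list, with red or blue fill for an adjusted p under 0.05 and a black bar at the list median. Filled dots lie on both sides of 0 in the FGF-ERK feedback list (5 and 3), the regulators (5 and 2), the FXR list (3 and 1) and the heparan sulfate list (2 and 1), and CCND1 appears in 2 lists.

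Around bile acids, 2 of 9 tested synthesis genes rose and 0 fell, with a median of -0.10. This was a share of 22.2%, beside 10.6% of all tested genes. In the GO term for bile acid biosynthesis of the deposited table, 3 of 21 tested genes rose and 0 fell. That share was 14.3%, with a median of -0.04. AKR1D1, the steroid 5-beta-reductase, went from 4.55, 3.79 and 4.41 CPM to 9.07, 7.10 and 7.36 (log2 fold change 0.88, SE 0.15, edgeR adjusted p = 6.00e-04). AKR1C4, a hydroxysteroid dehydrogenase, had a log2 fold change of 0.80 (SE 0.17, adjusted p = 0.00424), and its reads may be shared with its close paralogs. CYP27A1, which opens the alternative pathway, had a log2 fold change of -0.25 (SE 0.11, adjusted p = 0.170).

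Of 14 tested genes of FXR signalling and bile acid transport, 3 rose and 1 fell, with a median of 0.13. This was a share of 28.6%, beside 10.6% of all tested genes. NR5A2, a nuclear receptor that acts on CYP7A1 transcription, rose from 38.5 ± 2.72 to 50.6 ± 1.23 CPM (log2 fold change 0.40, SE 0.06, edgeR adjusted p = 1.21e-04). The efflux transporter ABCC3 rose by 0.25 on the log2 scale (adjusted p = 0.00586, and 0.0515 without TKT replicate 1). ABCC2 rose by 0.15 (adjusted p = 0.0120), a call lost without TKT replicate 3 (0.0661) and without vector control replicates 1 (0.0525) and 3 (0.0659). HNF4A, a hepatocyte transcription factor, fell by 0.15 (adjusted p = 0.00720, and 0.0555 without TKT replicate 1). FXR itself, NR1H4, was at 136 ± 4.12 against 126 ± 8.25 CPM (log2 fold change 0.11, adjusted p = 0.183, and 0.0444 without vector control replicate 2), and its target SHP, NR0B2, at 2.14 ± 0.288 against 1.72 ± 0.433 CPM (log2 fold change 0.31, adjusted p = 0.527).

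Of 14 tested genes known to regulate FGF19 or FGF21 transcription or to mark the stress response that does so, 5 rose and 2 fell. The median was 0.03. The share past the threshold was 50%, beside 10.6% of all tested genes, a description since the list was chosen with results known. ATF3, a stress-induced transcription factor, was the gene past the fold threshold among the 111 list genes tested, rising from 8.08, 6.81 and 9.65 CPM to 26.4, 25.8 and 25.5 (log2 fold change 1.66, SE 0.11, edgeR adjusted p = 6.33e-10). The PERK kinase EIF2AK3 rose by 0.43 on the log2 scale (adjusted p = 0.00255). DDIT3 rose by 0.38 (adjusted p = 0.0417) and the clock repressor NR1D1 by 0.31 (adjusted p = 0.0434), calls that were lost whichever single culture was left out, with adjusted p from 0.0682 to 0.171 and from 0.0560 to 0.174. CREB3L3, the fifth to rise and named after its values were seen, rose by 0.17 (adjusted p = 0.0312), a call lost without TKT replicates 1 (0.149) and 3 (0.0729) and without vector control replicates 2 (0.0701) and 3 (0.112). CHAC1, an ATF4 target, fell by 0.52 (SE 0.10, adjusted p = 0.00114). MLXIPL, the carbohydrate response factor ChREBP, fell by 0.28 (adjusted p = 0.0391), and this call was kept only without TKT replicate 3, with adjusted p from 0.0514 to 0.183 without any other culture. ATF4 itself had a log2 fold change of 0.08 (SE 0.04, adjusted p = 0.188).

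FGF19 sits in the 11q13 region, which is amplified together with CCND1 in some hepatocellular carcinomas. Of its 9 tested neighbours, 2 rose and 0 fell, a share of 22.2% beside 10.6% of all tested genes, with a median of 0.18. They were the 2 nearest tested genes. LTO1, whose annotated end lies 22.8 kb from FGF19, went from 43.6, 43.4 and 46.8 CPM to 56.4, 57.1 and 56.4 (log2 fold change 0.34, SE 0.05, edgeR adjusted p = 2.00e-04). CCND1, 43.8 kb away, went from 370 ± 6.19 to 418 ± 4.33 CPM (log2 fold change 0.18, SE 0.03, adjusted p = 0.00159). Both values were below the 0.80 of FGF19. The annotated spans of CCND1 (to position 69654474) and LTO1 (from position 69653076) overlap. Reads there may not be told apart, so the rises of LTO1 and CCND1 may not be separate observations. MYEOV, 331 kb away and sparse at 16 to 68 counts, had a log2 fold change of 1.07 (SE 0.35, adjusted p = 0.0524) and passed 0.05 without TKT replicate 3 (0.0344) and without vector control replicate 2 (0.0353). TPCN2 had -0.17, ANO1 0.23, FADD 0.04 and MRGPRF 0.09, none past the threshold. PPFIA1 at 0.52 (SE 0.48) and CTTN at -0.50 (SE 0.50) varied widely between cultures of a condition, and PPFIA1 passed the threshold without vector control replicate 2 (log2 fold change 1.11, adjusted p = 0.0126). FGF3, with 5 to 14 counts a library, and FGF4, with 0 to 2, were not tested. The copy number of the region was not measured. Over all lists, these neighbours and NUDT6 included and each gene counted once, 19 genes rose and 7 fell of 111 tested, or 23.4% beside 10.6% of all tested genes, from which nothing is read, since the lists were chosen with results known.

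The genes whose pattern over the 6 libraries was most like that of FGF19 were found among 11286 genes by the root mean square difference of log2 CPM, after centring each gene on its mean. The nearest were the sphingosine 1-phosphate receptor S1PR3, at a difference of 0.0396 log2 units, the ferlin MYOF at 0.0404, the transcription factor KLF10 at 0.0598, the cytochrome CYP1A1 at 0.0623 and the annexin ANXA3 at 0.0667. Their log2 fold changes were 0.74, 0.78, 0.72, 0.86 and 0.75. The nearest to FGFR4 were CALM3 at 0.00858, CPSF4 at 0.0109, B4GAT1 at 0.0123, the citrate synthase gene CS at 0.0142 and ARL6IP1 at 0.0151, with log2 fold changes from -0.18 to -0.16. The differences around FGFR4 were smaller than those around FGF19, and FGFR4 also moved less between conditions. That these genes have log2 fold changes near those of FGF19 and FGFR4 follows from how they were picked. The contrast between conditions enters the measure of likeness.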

How the data were processed

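RNA from 3 TKT-overexpressing and 3 vector control cultures was sequenced as 150 bp paired-end reads. Per the submitters' processing notes and the study's methods, the authors trimmed reads with fastp 0.22.0, aligned them to hg38 with HISAT2 2.1.0 and counted them with featureCounts. Annotation, strand and multi-mapping options are not given in the sources used here. The authors deposited unnormalized counts and FPKM per gene symbol. The deposited FPKM were counts divided by a gene factor and a library factor within 1% for 99.8% of tested genes. The table's annotation columns were read for GO terms, and 0 columns of samples were left unused. Columns named for TKT were matched to the overexpression libraries of the same number.

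The deposited counts were fitted with edgeR 4.0.16 under R 4.3.3 (filterByExpr, minimum count 10, TMM, robust quasi-likelihood test, both conditions, no block), with Benjamini-Hochberg adjustment over the 14162 tested genes. CPM used the TMM-scaled library sizes. The common biological coefficient of variation was 0.113. Totals of 30148788 to 37096156 counts set the precision of sparse genes, and a count of 0 was taken to allow up to 3 counts. Such limits cover counting error only. The chi-square per degree of freedom was 7.30 to 10.1 between replicates and 31.5 to 38.8 between conditions, so no 2 libraries looked like copies. The labels do not say how the replicates were separated, so p-values measure the spread between these cultures, which may be technical.

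The 10 members and the lists were chosen with earlier results of these data known, and the differences of members were not tested as findings. Named were the members, TKT, for each list up to 4 genes in each direction at an adjusted p under 0.05, NUDT6, the 11q13 neighbours and the 5 genes nearest in pattern (mean log2 CPM of at least 1) to FGF19 and to FGFR4. Outside this rule, the following genes were picked with their values in view: FGF8, FGF12, FGF22, FGFRL1, KL, CYP8B1, CYP27A1, NR1H4, NR0B2, ATF4, CREB3L3, SPRY1, SPRY4, ETV1, ETV5 and CCN2. Alternatives were DESeq2 1.42.0, RLE and upper-quartile scaling, 2 other filters, the replicate number as a block, limma 3.58.1 on log2(FPKM + 1) and log2(FPKM + 0.1), and each culture left out. On simulated counts with 13933 genes tested, edgeR recovered 67.3% of genes changed 1.5-fold and 87.9% of those changed 3-fold, with 13 false calls among 166.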

Additional observations from a re-analysis of the deposited data

How the results depend on the processing

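FGF19, a gene chosen on this contrast, had log2 fold changes that lay between 0.76 and 0.84 in the 14 alternatives, and 0 members passed both thresholds in any of the 14. The replicate numbers gave no sign of pairing. The correlations of same-numbered deviations were -0.0019, -0.0252 and 0.0156 over 14162 genes, and not every culture correlated best with its own number. Such correlations cannot show whether the cultures were set up in matched rounds, which the labels do not say. With the replicate number as a block, 1 member was higher (FGF19) and 1 lower (FGFR3) at an adjusted p under 0.05, in place of 2 and 3. The block left 67 genes past both thresholds in place of 103, 697 at an adjusted p under 0.05 in place of 1505, and 1 list gene lower in place of 7. With limma on log2(FPKM + 1) and on log2(FPKM + 0.1), 1 member was higher and 1 lower (FGFR4) on each scale, 13 and 66 genes passed both thresholds, 827 and 826 passed the adjusted p alone, and 3 list genes were lower on each. DESeq2 gave 53 genes past both thresholds and 11 lower list genes, and no filter gave 160 genes. The cause of these shifts was not tested.

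With each culture left out, the genes past both thresholds numbered 74 to 128 and those at an adjusted p under 0.05 numbered 791 (without TKT replicate 1) to 1586. Members called were 1 to 2 higher and 2 to 3 lower, list genes lower were 2 to 8, and pairs of neighbouring levels that overlapped were 3 to 4, in place of 4. FGFR2 ranged from -0.10 to 0.0097 and FADD from -0.0026 to 0.12, each turning without vector control replicate 2, and MRGPRF, at 4 to 28 counts, from -0.51 to 0.96, turning without TKT replicate 1 (-0.51) and without vector control replicates 2 (-0.33) and 3 (-0.08). Per kilobase of GENCODE 29 exons, a scale chosen after seeing the data, 4 places in the order of levels changed, FGFR1 with FGFR2 in each condition. Depth limited FGF17, FGF21 and CYP7A1, with at most 28 counts a library.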
